A study of Betula luminifera with 4 samples.

Results

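miR530, miR477, miR2950 and miR7122 are plant microRNA families that have been studied less than most, and 12 of the 215 distinct mature sequences in a small RNA table of Betula luminifera, a birch tree, carry one of these family names. They were selected on their measured ratios, between phosphate-deficient and control plants or between roots and shoots, by taking every row whose name carries one of these family numbers directly after miR, with each distinct sequence counted once. The differences below therefore describe sequences picked for being different, and no test is attached to them. The members comprise 3 sequences of miR530, 2 of miR477, 2 of miR2950 and 5 of miR7122.

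All plants were of clone G49#, raised in tissue culture, moved to sand, watered with phosphate and then with deionized water. The groups are root LP and root CK, and shoot LP and shoot CK. LP plants received a modified MS medium with no KH2PO4, with K2SO4 added to adjust potassium, so the sulfate supply changed too. CK plants received 1.25 mM KH2PO4. Stem and leaf RNA in equal parts made up a shoot library, and neither the plants behind each library nor the duration of LP is given. The table holds miRNAs only, so the organ labels were not checked against marker genes. Each group has 1 library, so nothing below has a replicate check. Intervals in parentheses are 95% exact intervals that cover the counting error of reads only, since copies made by PCR do not count separate molecules.

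A plant microRNA is cut as a duplex from the stem of a folded precursor, and one or both arms of the duplex (5p and 3p) are found by sequencing. It guides an Argonaute protein to transcripts that pair with it, and bases 2 to 8, the seed, have to pair well. In rice miR530 targets a gene with a PLUS3 domain and affects grain size, and in poplar miR477 is predicted to target GRAS transcription factors. In apple and peach, the 22-nt miR7122 targets pentatricopeptide repeat (PPR) genes and sets off secondary small interfering RNAs from them, an activity associated with the 22-nt length. Targets of miR2950 are little studied. No target was measured here.

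The main sequences are shown in DNA letters from 5′ to 3′ with the seed in capitals, because the results turn on how these forms differ.
miR530b: tGCATTTGcacctgcacctcc
miR530a: tCTGCATTtgcacctgcacct
miR530c: aGGTGCAGgtgcaggtgcagg
miR477-3p: tGAGGCCTttggggagagtgg
miR477-5p: aCTCTCCCtcaagggcttctc
miR2950a: tTCCATCTcttgcacactgga
miR7122a: tTATTCAGagaaatcacggttg
miR7122b: tTATTCAGagaaatcacggt
miR7122a-3p: aCCGTGTTtctctgtataagg
miR7122b-3p: aCCGTGTTtctctgtataaag

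Of these families, only miR7122 had members that share a seed with another sequence of the table. miR7122a and miR7122b share one, since the 20-nt miR7122b is the first 20 bases of the 22-nt miR7122a. miR7122a-3p and miR7122b-3p share another and differ by 1 substitution, G20A, counted from the 5′ end of miR7122a-3p. No other member shared its seed with any of the 215 sequences. miR530a and miR530b overlap in 19 bases without a mismatch, but miR530a starts 2 bases earlier, which gives them different seeds. miR530c repeats a unit of 6 bases (aggtgc) throughout, and a run of 13 bases in it is exactly complementary to both miR530a and miR530b.

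By length, 9 of the 12 were of 21 nt, against 49.8% of all sequences. A 5′ T, the base preferred by the main plant Argonaute, began 8 of the 12, against 51.2% of all sequences. According to the authors' annotation, miR2950a was identical to a known miRBase sequence, that of cassava, 8 members were variants of known sequences, and 3 (miR530c, miR7122a and miR7122a-3p) were not in miRBase. GC content ran from 57.1% for miR477-5p to 61.9% for miR477-3p in miR477, and from 35.0% for miR7122b to 42.9% for miR7122a-3p in miR7122.

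For 6 members the table lists where the precursor lies in the authors' transcript assembly. Of these, 4 were placed on a single hairpin of 138 bases (transcript TRINITY_DN25244_c1_g1, plus strand, positions 27 to 164), shown with both arms in capitals because the arm and length comparisons below rest on it.
miR7122 precursor: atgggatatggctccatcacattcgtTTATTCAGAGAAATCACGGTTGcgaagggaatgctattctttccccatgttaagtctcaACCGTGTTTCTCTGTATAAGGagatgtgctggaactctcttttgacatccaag
In the fold deposited with it, 18 of the 22 bases of miR7122a pair with bases of miR7122a-3p, and 37 bases separate the arms. The hairpin contains miR7122a, miR7122b and miR7122a-3p exactly. miR7122b-3p matches it in 20 of 21 bases, and its source cannot be told from this table. miR530a was placed on a hairpin of 64 bases (TRINITY_DN29109_c0_g1, minus strand, positions 297 to 360) with 1 mismatch (T1C, from the member to the precursor). miR530c was placed on one of 40 bases (TRINITY_DN22642_c0_g1, minus strand, positions 189 to 228). The authors list miR530c as a 3p arm, yet it covers bases 13 to 33 of these 40 and so runs across the middle. Whether miR530c is an arm of a duplex was therefore not shown. The folding energies listed for these short hairpins, -17.2 and -17.0 kcal/mol, are weaker than the -47.9 kcal/mol of the longer miR7122 hairpin. These energies are not adjusted for length. The authors' folding energy index (MFEI), which takes length into account, lies closer together. It is 0.6 for the miR530a hairpin, 0.7 for the miR530c hairpin and 0.8 for the miR7122 hairpin. For miR530b, both miR477 sequences, both miR2950 sequences and miR7122c no birch precursor was listed, and their names rest on likeness to other species.

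The raw reads of the table sum to 101816 in root LP, 308667 in root CK, 723599 in shoot LP and 1015833 in shoot CK, and these are totals of the table, not of whole libraries. The 12 members held 0.9002% of them in root LP, 0.961% in root CK, 0.527% in shoot LP and 0.566% in shoot CK. Levels below are the authors' normalized values, and a fold is a plain ratio of them. Log2 ratios are of value + 1, which draws low values closer together, while calls rest on the plain ratio. Calls of higher or lower required a 2-fold ratio and a level of 10 in one library of the pair. Under this rule 10 members had a usable value in at least 1 library, and miR2950b-3p and miR7122c did not. The plot of levels shows all 12.

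**Figure D1:**
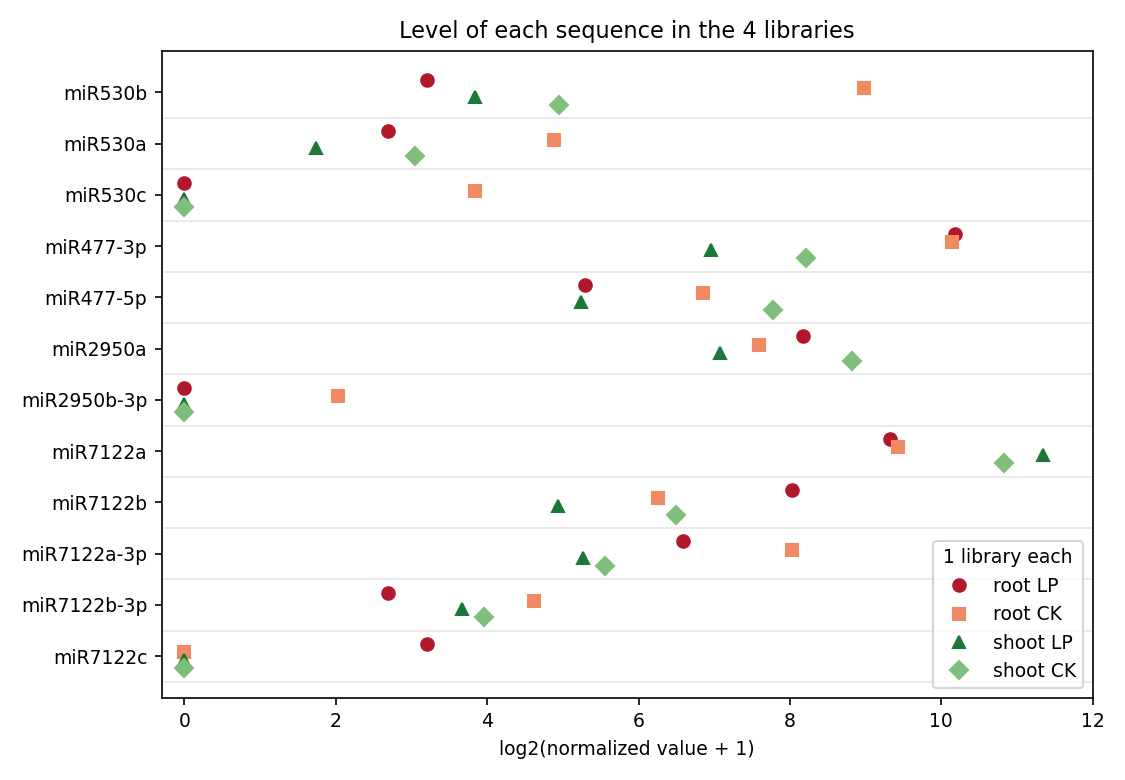
Normalized values of the 12 sequences on the log2(value + 1) scale, 1 library per symbol, with 0 on the axis for a sequence listed at 0. miR530b stands at 501 in root CK and at 29.97 or less in the other libraries, and miR7122a is highest in the shoot libraries.

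miR530 was high in root CK and low in the other 3 libraries. miR530b had 3 reads in root LP, against 490.5 in root CK, and 17 in shoot LP, against 58 in shoot CK. As normalized values these are 8.19 in root LP, against 501 in root CK, and 13.3 in shoot LP and 29.97 in shoot CK. Root CK was thus the one high library, and root LP did not differ from shoot LP beyond counting error (0.617-fold, 0.116 to 2.13). The ratio of root LP to root CK was 61.2-fold lower (20.8 to 297), and on the log2 scale of value + 1 it was the lowest of all 143 sequences compared in roots. At 3 reads its size is uncertain by more than 10-fold. In shoots miR530b was 2.26-fold (1.30 to 4.14) lower under LP, and TMM scaling brought its log2 ratio from -1.12 to -0.75, under 2-fold.

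The other miR530 sequences were scarcer but also highest in root CK. The LP libraries held 2 reads of miR530a in roots and 3 in shoots, and the CK libraries 28 in roots and 14 in shoots. Its root ratio was 5.24-fold lower (1.32 to 45.4) under LP, and in shoots no value reached 10. miR530c had 13 reads in root CK and was listed at 0 in the other 3 libraries. Single reads are rare in the table (5 of its 705 values above 0), so a listed 0 can hide a read, and no fold is given for it. miR530b held 92.3% (89.5 to 94.3) of the family's reads in root CK and 80.6% (69.5 to 88.9) in shoot CK, so the sum of the family follows miR530b: it was 39.8-fold (17.0 to 123) lower under LP in roots and 2.38-fold (1.44 to 4.13) lower in shoots, the second under 2-fold with TMM (log2 -0.83). The origin of the fractional reads of miR530b is not stated.

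Against the shoot, the same root CK value made miR530b 16.7-fold (12.7 to 22.3) higher in root CK than in shoot CK. miR530a was 3.96-fold (2.01 to 8.13) higher in root CK than in shoot CK. Under LP neither miR530a nor miR530b had more than 3 reads in roots, and the organ ratio of miR530b depended on the scaling. Its log2 ratio of root LP over shoot LP was -0.63, was called lower with TMM (-0.94) and changed sign with the table total (0.30). In the bulk RNA of an organ, fewer cells with a miRNA and less of it per cell cannot be told apart.

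The 3p sequence of miR477 was higher in roots than in shoots. miR477-3p had a level of 1155 in root LP and one of 1131 in root CK, against 123 in shoot LP and 296 in shoot CK. Both root libraries lay above both shoot libraries and differed from each other by less than counting error (1.02-fold, 0.910 to 1.14). In shoots miR477-3p was 2.40-fold (2.01 to 2.88) lower under LP, a call that TMM scaling took under 2-fold (log2 -0.86). It was 3.83-fold (3.46 to 4.24) higher in root CK than in shoot CK and 9.37-fold (7.78 to 11.3) higher in root LP than in shoot LP. Both organ ratios stayed above 2-fold under every scaling tried.

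The 5p arm went another way. miR477-5p had a level of 38.2 in root LP and one of 114 in root CK, and levels of 36.7 in shoot LP and 219 in shoot CK. It was low in both LP libraries, which did not differ beyond counting error, and highest in shoot CK. Under LP it was 2.98-fold (1.71 to 5.65) lower in roots and 5.97-fold (4.41 to 8.26) lower in shoots, and both calls held under every scaling tried. The root LP value rests on 14 reads. Between organs it was 1.92-fold (1.55 to 2.38) lower in root CK than in shoot CK. In root LP over shoot LP it was within counting error (1.04-fold, 0.530 to 1.93), and its log2 ratio of 0.06 became 1.05 with the table total and -0.26 with TMM.

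Because both arms were read in the same library, their ratio does not depend on the scaling. There were 0.0331 (0.0179 to 0.0562) reads of miR477-5p per read of miR477-3p in root LP and 0.101 (0.0825 to 0.123) in root CK. In shoot LP the ratio was 0.297 (0.210 to 0.414), against 0.741 (0.652 to 0.842) in shoot CK. Under LP the ratio was 3.04-fold (1.72 to 5.83) lower in roots and 2.49-fold (1.74 to 3.61) lower in shoots. Such changes were also seen in other arm pairs with at least 3 reads each, with arms as listed. In roots 4 of 18 had intervals below 1 and 5 above. In shoots 9 of 27 had intervals below 1 and 3 above. The 3p arm of miR477 held the majority of reads in all 4 libraries, with 96.8% in root LP, against 90.8% in root CK, and 77.1% in shoot LP and 57.4% in shoot CK. Summed over both arms, miR477 had a log2 ratio under LP of -0.06 in roots, within counting error, and -1.68 in shoots, and of 2.89 in root LP over shoot LP and 1.27 in root CK over shoot CK. No birch hairpin was listed for these arms, so their pairing was not checked on a birch sequence. The authors list the same hairpin values for both (folding energy -49.1 kcal/mol, hairpin length 99). Each matches 1 arm of the miRBase csi-miR477d (5p and 3p) in 20 of 21 bases.

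**Figure D2:**
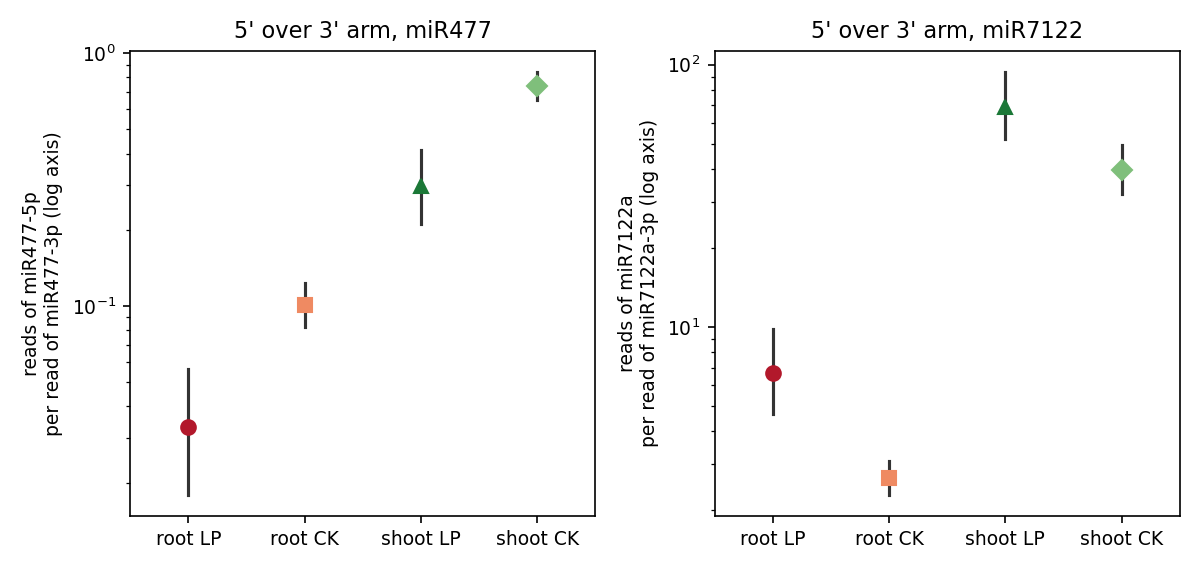
Reads of the 5p arm per read of the 3p arm in each library, on log axes, for miR477 on the left and miR7122 on the right, with 95% counting intervals as bars. The miR477 ratio is lower under LP in both organs, and the miR7122 ratio is higher under LP in both organs and at least 39.5 in the shoot libraries.

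miR2950 was represented by miR2950a, since the 18-nt miR2950b-3p had 3 reads in root CK and was listed at 0 elsewhere. miR2950a had a level of 288 in root LP and one of 192 in root CK, and levels of 133 in shoot LP and 451 in shoot CK. Shoot CK was thus highest and shoot LP lowest, with the roots in between, and each step in this order exceeded counting error in the authors' scaling. As a share of table reads the family was instead highest in root LP, at 0.104%, against 0.0858% in shoot CK. The shoot ratio was 3.38-fold (2.86 to 4.002) lower under LP and held under every scaling tried. The root ratio pointed up at 1.499-fold (1.18 to 1.92), under the 2-fold line. The organ order differed between treatments: miR2950a was 2.35-fold (2.00 to 2.76) lower in root CK than in shoot CK and 2.16-fold (1.69 to 2.78) higher in root LP than in shoot LP. Neither organ call is firm, since scaling to the table total brought the CK log2 ratio from -1.23 to -0.49, and TMM brought the LP one from 1.10 to 0.78.

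miR7122 was the most abundant of these families in both shoot libraries, mainly through its 22-nt sequence. miR7122a had a level of 639 in root LP and one of 689.7 in root CK, and levels of 2587 in shoot LP and 1818 in shoot CK. The shoot libraries were higher than the root libraries. Under LP the difference was within counting error in roots (0.926-fold, 0.795 to 1.08) and 1.42-fold (1.36 to 1.49) up in shoots, both under 2-fold. It was 2.64-fold (2.43 to 2.87) lower in root CK than in shoot CK and 4.05-fold (3.55 to 4.64) lower in root LP than in shoot LP. Scaling to the table total took these log2 ratios from -1.40 to -0.66 and from -2.02 to -0.99.

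The 20-nt form did not follow the 22-nt one. miR7122b had a level of 259 in root LP and one of 75.6 in root CK, and levels of 29.6 in shoot LP and 88.9 in shoot CK. Root LP was the highest library and shoot LP the lowest, while the CK libraries differed by less than counting error in the authors' scaling. The log2 ratio of root CK over shoot CK was -0.23, and turned to 0.50 with the table total and 0.09 with the median of ratios. miR7122b was 3.43-fold (2.50 to 4.71) higher under LP in roots and 2.998-fold (2.10 to 4.38) lower under LP in shoots. Both calls held under every scaling tried. It was 8.75-fold (5.95 to 13.1) higher in root LP than in shoot LP. Its reads numbered 95 in root LP, against 74 in root CK, and 38 in shoot LP and 172 in shoot CK.

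Set against miR7122a within the same library, there were 0.406 (0.316 to 0.517) reads of the 20-nt form per read of the 22-nt form in root LP and 0.110 (0.0850 to 0.140) in root CK. In shoot LP there were 0.0115 (0.00809 to 0.0158), against 0.0489 (0.0417 to 0.0570) in shoot CK. With LP the ratio was 3.70-fold (2.60 to 5.27) higher in roots and 4.27-fold (2.98 to 6.25) lower in shoots. Of all miR7122 reads, the 20-nt form made up 25.7% in root LP, against 7.21% in root CK, and 1.11% in shoot LP and 4.52% in shoot CK.

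**Figure D3:**
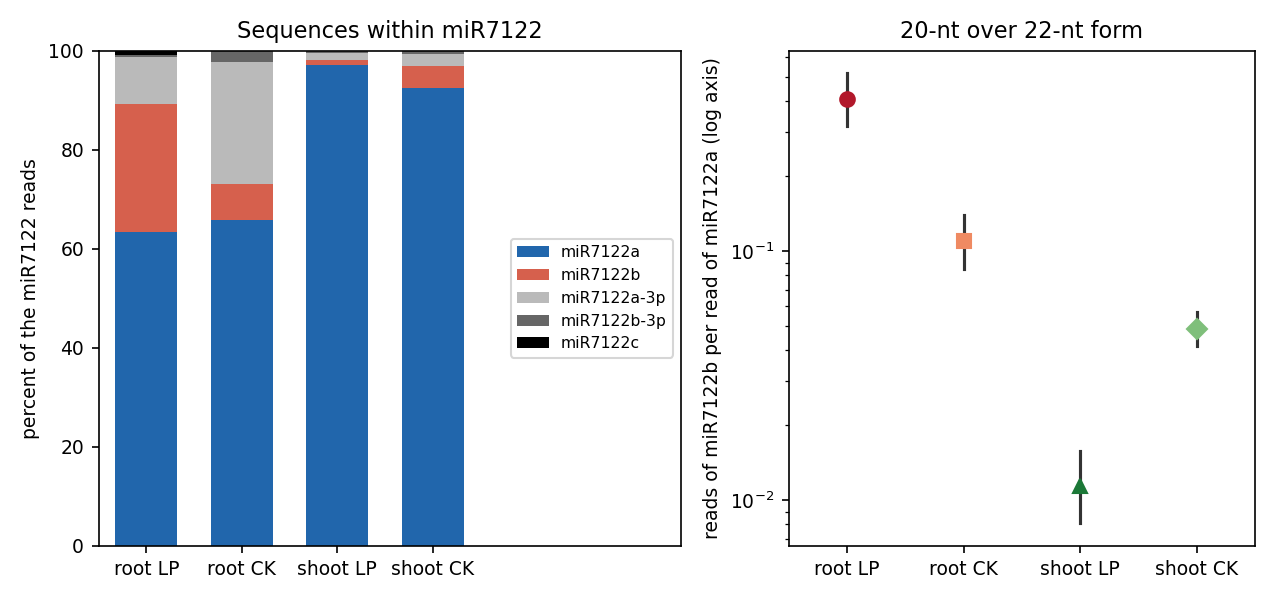
Left, the percent of miR7122 reads held by each of its 5 sequences in each library. Right, reads of the 20-nt miR7122b per read of the 22-nt miR7122a on a log axis, with 95% counting intervals as bars: 0.406 in root LP against 0.110 in root CK, and 0.0115 in shoot LP against 0.0489 in shoot CK.

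The values of other short and long forms are given beside it. Of the other 20-nt sequences compared, 12 of 17 were above 0 in log2 ratio under LP in roots (median 0.69), and 12 of 13 were below 0 in shoots (median -1.18). Sequences of 22 nt outside these families had medians of -0.65 in roots, with 11 of 16 below 0, and 0.33 in shoots, with 11 of 18 above 0. The table holds 6 other pairs in which the shorter sequence is the start of the longer one. In roots 4 of them could be compared, and the ratio of shorter to longer form was larger under LP in 3, with intervals above 1 in 2 of them. It changed 7.36-fold (2.68 to 18.8) for miR169b over miR169c, 3.37-fold (1.46 to 8.06) for miR399c over miR399a, 1.56-fold (0.380 to 7.08) for miR172b/c over miR172f and 0.852-fold (0.532 to 1.37) for miR156g over miR156i. In shoots all 6 changes were below 1, with intervals below 1 in 3 of them, the lowest at 0.220 (0.121 to 0.423) for miR319a over miR319e. The pairs with miR319c and miR319e share miR319a as the shorter form, so they are not separate cases. The part that a length difference between libraries has in the miR7122 ratio was not tested.

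**Figure D4:**
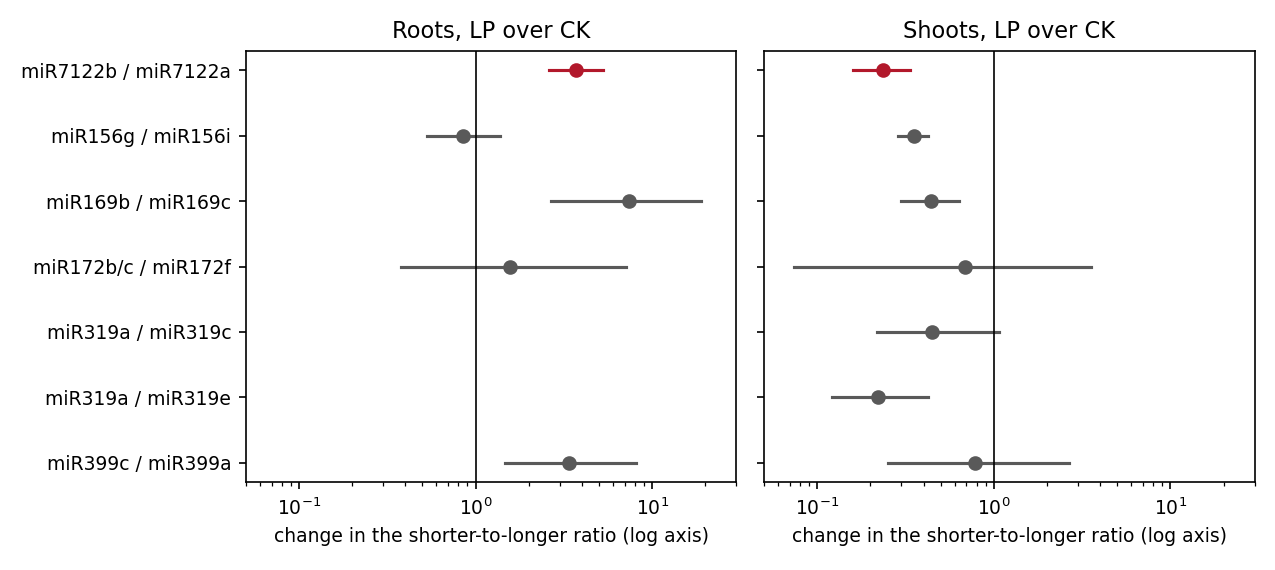
Change under LP in the ratio of a shorter sequence to a longer one that begins with it, on a log axis, with 95% counting intervals as bars and miR7122 in red. In shoots all 7 pairs lie below 1, and in roots 4 of 5 lie above 1. The miR319 pairs share miR319a as the shorter form and have no root value because a form was listed at 0.

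miR7122a-3p was higher in roots, where its partner miR7122a was higher in shoots. miR7122a-3p had a level of 95.5 in root LP and one of 259.5 in root CK, and levels of 37.4 in shoot LP and 46.0 in shoot CK. Both root libraries were above both shoot libraries. It was 2.72-fold (1.90 to 3.99) lower under LP in roots, and the shoot difference was within counting error (0.814-fold, 0.561 to 1.17), with a sign that turned under TMM. It was 5.64-fold (4.42 to 7.27) higher in root CK than in shoot CK and 2.55-fold (1.60 to 4.03) higher in root LP than in shoot LP.

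Per read of miR7122a-3p there were 6.69 (4.67 to 9.83) reads of miR7122a in root LP, against 2.66 (2.30 to 3.08) in root CK, and 69.1 (52.0 to 93.9) in shoot LP and 39.5 (32.0 to 49.3) in shoot CK. The 5p arm prevailed everywhere, and its excess was 14.9-fold (11.5 to 19.4) smaller in root CK than in shoot CK. Under LP the excess was 2.52-fold (1.70 to 3.805) larger in roots and 1.75-fold (1.21 to 2.55) larger in shoots. For 24 other hairpins with both arms and at least 3 reads each, with arms as the table assigns them, the root CK to shoot CK change in this ratio ran from 0.0569 to 10.3. Their median was 0.733, and the miR7122 value of 0.0672 lies near the low end of that range. Among them is miR166a over miR166a-5p, at 0.0973, where the sequence taken as the 3p arm is named 5p. With these arms exchanged its value would be 10.3, near the high end, and the median would be higher. Its changes under LP would likewise move from above 1 to below 1.

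Summed over its 5 sequences, miR7122 had a log2 ratio under LP of -0.06 in roots, within counting error, and 0.44 in shoots. It was -1.40 in root LP over shoot LP and -0.91 in root CK over shoot CK. The remaining miR7122 sequences were rare. For miR7122b-3p the LP libraries held 2 reads in roots and 15 in shoots, and the CK libraries 23 in roots and 28 in shoots. It was 4.30-fold (1.06 to 37.7) lower under LP in roots and within counting error in shoots. miR7122c had 3 reads in root LP and was listed at 0 in the other libraries. It differs from miR7122a at T5A, G8A, A9T, T20C and T21C, from miR7122a to miR7122c and counted from the 5′ end.

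Over the members, LP in roots gave 1 of 10 usable sequences higher (miR7122b), where 24.5% of 143 sequences were called higher, and 6 lower (all 3 miR530 sequences, miR477-5p, miR7122a-3p and miR7122b-3p), where 18.2% were called lower. Among these lower calls, miR530a and miR7122b-3p rest on 2 reads each in root LP and miR530b on 3, and miR530c was listed at 0 there. In shoots LP gave 0 of 8 higher, where 17.9% of 140 were, and 5 lower (miR530b, miR477-3p, miR477-5p, miR2950a and miR7122b), where 27.9% were. In root CK against shoot CK, 5 of 10 were higher and 2 lower, beside 26.1% and 38% of 142 sequences. In root LP against shoot LP, 4 of 8 were higher and 2 lower, beside 34.8% and 38% of 158 sequences, and the miR7122b-3p call among them rests on 2 reads with an interval that includes 1. Median log2 ratios of the members were -1.49 in roots and -1.19 in shoots for LP, against 0.07 and -0.23 over all sequences compared. Since the members were picked for these ratios, and some reach a value of 10 only in the library where they are high, the counts describe them and say nothing more. The comparisons share libraries, so root CK enters both the root LP and the organ ratios.

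**Figure D5:**
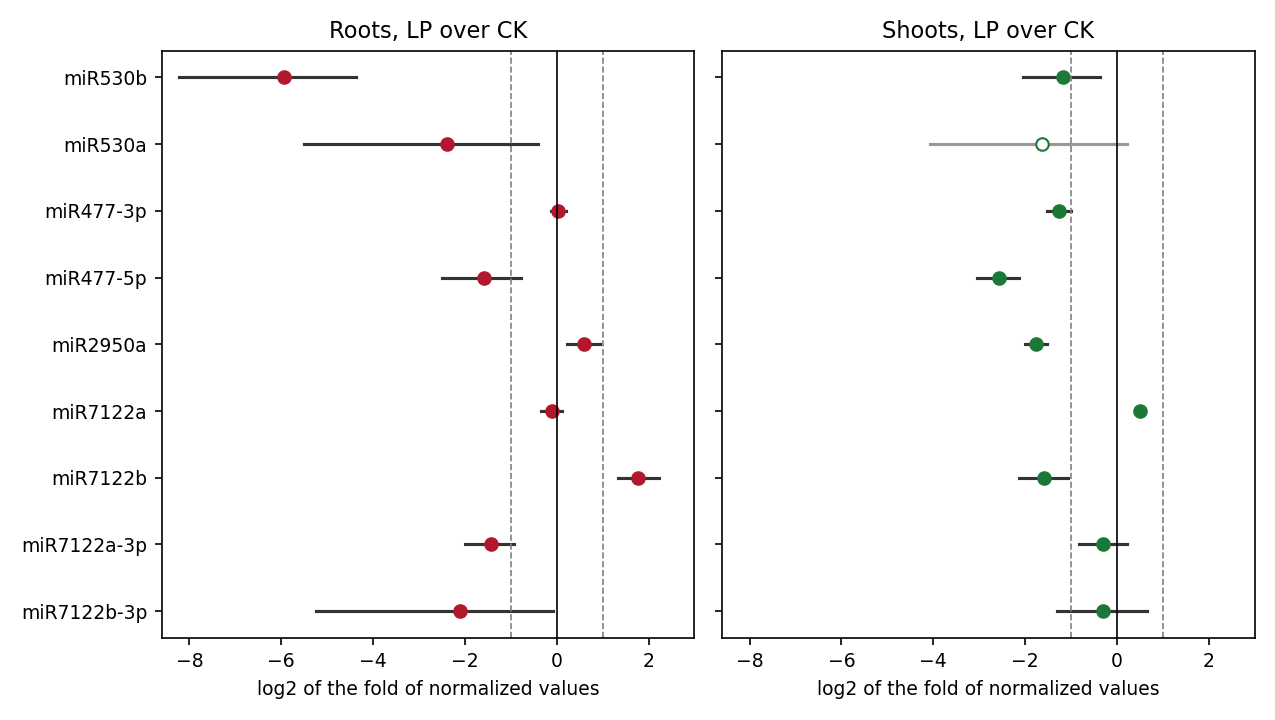
Log2 fold of LP over CK in roots (left) and shoots (right) with 95% counting intervals as bars, dashed lines at 2-fold, and an open symbol where no value reached 10. miR530b is far to the left in roots, and miR7122b lies right of 0 in roots and left of it in shoots. miR530c, miR2950b-3p and miR7122c, listed at 0 in some libraries, are left out.

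Of the families with a related role, each summed over its sequences, miR2111 alone was called under LP, and in roots only. miR171, which targets GRAS genes, had log2 ratios of -0.31 in roots and -0.47 in shoots, and miR3627, grouped with miR7122 as a trigger of secondary small interfering RNAs, 0.20 in roots and 0.35 in shoots, none at 2-fold. Of the phosphate-starvation families, miR399 was under 2-fold in both organs (0.04 in roots, -0.42 in shoots). miR2111 was 4.45-fold (1.47 to 14.9) higher under LP in roots, from 10 reads in root LP against 6 in root CK, and did not reach a value of 10 in shoots.

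The sequences whose levels over the 4 libraries were most like those of each leading member were found by the distance between centred log2 profiles. Candidates were the 90 to 92 sequences of other families that reached a value of 100 in a library, so members of the same family were left out. For miR2950a these were miR160a (distance 0.496), miR168a (0.654) and miR162a-p5 (0.869). For miR477-3p they were miR393a (0.621), miR169a-3p (0.694) and miR166a-5p (0.702), and for miR7122a they were miR167c (0.421), blu-miR8-5p (0.607) and miR156a-3p (0.626). Among these candidates miR530b had no close neighbour: the nearest were miR166f-5p (3.06), miR7122a-3p (3.13) and miR396a-3p (3.42). These were also highest in root CK. The distance was not scaled for the size of the differences. The large distances of miR530b thus partly restate its extreme root ratio, which rests on 3 reads in root LP. Over 4 libraries such likeness is a description only.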

How the data were processed

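Small RNA libraries from roots and shoots were made with a TruSeq kit and read as 36-nt single reads, per the labels' protocols. The deposited table holds estimated counts of raw reads per mature sequence, some fractional, and a normalized signal, per the file headers, in which the authors' raw values of a library are all scaled by the same constant. These constants are 2.73 for root LP, 1.02 for root CK, 0.780 for shoot LP and 0.517 for shoot CK, as the deposited columns show. For the aligner, the counting program and the origin of the constants, the sources used here give nothing. Here blanks were removed from names and sequences, and 221 rows were collapsed to 215 distinct sequences. Fold intervals are exact conditional Clopper-Pearson intervals (95%) of reads rounded to whole numbers. They were checked on simulated counts with Poisson error only, which cannot show how they do under other variation between libraries. Changes in a ratio of forms have exact conditional odds-ratio intervals. Both used scipy 1.17.1. Scaling by the table total, TMM and the median of ratios, other minimum values and pseudocounts, and the main sequence alone were tried as alternatives. Log2 ratios use a pseudocount of 1. TMM factors came from edgeR 4.0.16, used for scaling only. No p-value exists with 1 library per group. All members were named, and the members, lists and rules were chosen with earlier results of these data known. The lists were miR170 and miR171, then miR161, miR173, miR400, miR1509, miR3627 and miR4376, and then miR399, miR827, miR2111 and miR778. Only their families with a value of 10 are given values.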

Additional observations from a re-analysis of the deposited data

Results flagged for a closer look

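The LP ratios of miR7122b and miR2950a point up in roots and down in shoots, each with a counting interval that excludes 1. For miR7122b the log2 ratio is 1.76 in roots and -1.55 in shoots, a difference of 3.32. For miR2950a it is 0.58 in roots and -1.75 in shoots, a difference of 2.33. With 1 library per group the difference between organs was not tested.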

How the results depend on the processing

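Of the 52 member and family ratios, the 2-fold call was kept in 46 under TMM, 49 under the median of ratios and 44 under scaling to the table total. A pseudocount cannot change a call, which rests on the plain ratio. No called ratio changed sign. Scaling to the table total shifts the log2 of a plain ratio by 0.18 for LP in roots, -0.11 for LP in shoots, 0.73 for root CK over shoot CK and 1.02 for root LP over shoot LP. TMM shifts it by -0.05, 0.39, 0.12 and -0.33, and the median of ratios by -0.11, 0.16, 0.32 and 0.05. Family sums that moved beyond their counting interval are as follows. With the table total, miR477 and miR7122 in roots went to 0.12 and 0.12, and miR7122 in shoots to 0.33. In root CK over shoot CK, miR530 went to 4.55, miR477 to 2.01, miR2950 to -0.47 and miR7122 to -0.17. In root LP over shoot LP, miR477 went to 3.91, miR2950 to 2.12 and miR7122 to -0.38. With TMM, LP in shoots gave -1.29 for miR477, -1.36 for miR2950, 0.83 for miR7122, and root CK over shoot CK -0.79 for miR7122. Root LP over shoot LP gave 2.56 for miR477 and -1.73 for miR7122. With the median of ratios, miR7122 went to 0.60 for LP in shoots, and root CK over shoot CK gave 1.60 for miR477, -0.88 for miR2950 and -0.58 for miR7122. The most abundant sequence alone gave -1.25 for miR477 and 0.51 for miR7122 for LP in shoots. It gave 1.93 and -1.40 for them in root CK over shoot CK, and 3.22 and -2.02 in root LP over shoot LP.

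Counts over all sequences followed the filter. With a minimum of 100, LP gave 6 higher and 12 lower in roots and 9 and 19 in shoots, root CK over shoot CK gave 21 and 33, and root LP over shoot LP 24 and 31. With no filter, 60 were lower for LP in roots, 38 higher and 62 lower for LP in shoots, and 91 lower in root LP over shoot LP. TMM gave 48 higher and 23 lower for LP in shoots. The table total gave 56 higher in root CK over shoot CK, and 84 higher and 37 lower in root LP over shoot LP. No paired analysis was possible because each group has 1 library, and no replicate could be left out. The root LP library has the fewest reads, and miR530 there rests on 5.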
